A study of Mus musculus with 5 samples.

Results

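The miRNAs described here are those encoded inside the Hox gene clusters: miR-10a, miR-10b, miR-196a, miR-196b and miR-615. From the 1966 rows of mature miRNAs, 6 members were taken by name: mmu-miR-10a-5p, mmu-miR-10a-3p, mmu-miR-10b-5p, mmu-miR-196a-5p, mmu-miR-196b-5p and mmu-miR-615-3p. They are written below without the prefix for mouse. Another 5 strands of the same hairpins have rows but are not members, and are described mainly by their counts. Small RNA was sequenced from extracellular vesicles (EVs), membrane particles shed by cells, that were collected from murine mesenchymal stem cells of C57BL/6-GFP transgenic mice. The cells were grown in medium with serum and then kept for 48 h in Opti-MEM, a medium with reduced serum, and the small EVs in the filtered medium were spun down at 100000 g for 110 min. The groups were EVs that were not freeze-dried (2 libraries, called unmodified as in their titles) and EVs that were frozen, freeze-dried overnight and left to take up water for 1 h (3 libraries). The protocols given for all 5 samples name buffer with 25 mM trehalose, both for storage and for freeze-drying. The labels name no treatment of the cells, do not say whether replicates came from separate cultures, and also list storage buffer without trehalose or with protease inhibitors, so that whether buffer differed between the groups is not stated. The p-values therefore measure only the spread between these libraries, which may be technical.

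Hox genes encode transcription factors that set position along the body axis, and cells such as fibroblasts and mesenchymal stem cells keep a Hox pattern that reflects where in the body they came from. The miRNAs that lie between or inside Hox genes are transcribed in the same regions and bind messenger RNAs of Hox genes among other targets; repression of Hoxb8 by miR-196 is the best-known case. A miRNA hairpin is cut into a 5p and a 3p strand, of which usually a single one, the guide, is kept and recognises targets through its seed, the bases at positions 2 to 8.

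The mature sequences show why the guide strands among the members fall into 3 families, while miR-10a-3p has a seed that no other listed mouse miRNA holds. The sequences are from RefSeq on GRCm38.p6, in which all 6 members had an entry, and the seed is in capitals.
miR-10a-5p: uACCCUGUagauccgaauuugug
miR-10b-5p: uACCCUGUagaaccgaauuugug
miR-10a-3p: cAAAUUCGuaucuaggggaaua
miR-196a-5p: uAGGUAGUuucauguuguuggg
miR-196b-5p: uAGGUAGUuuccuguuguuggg
miR-615-3p: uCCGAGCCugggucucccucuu
miR-10a-5p and miR-10b-5p share a seed with no other of the mouse miRNAs listed there and differ over 23 bases at a single site, U12A (positions counted from the 5′ end, miR-10a-5p first). miR-196a-5p and miR-196b-5p likewise share a seed with no other and differ over 22 bases only by A12C (miR-196a-5p first). The seed of miR-615-3p is held by no other mouse miRNA in the table. Because members of a pair differ at 1 base, sequencing errors or reads assigned to several places could move counts between them. How such reads were counted is not given in the sources used here.

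The hairpins, placed by name in GENCODE M21 (GRCm38), lie in all 4 Hox clusters. The miR-10a hairpin (chromosome 11, 96317165 to 96317274, plus strand) overlaps no other annotated gene and lies 993 bp from Hoxb4. The miR-10b hairpin (chromosome 2, 74726070 to 74726137, plus strand) lies in an intron of Hoxd3 and Hoxd4. The miR-196b hairpin (chromosome 6, 52230081 to 52230165, minus strand) overlaps an exon of a transcript of Hoxa9, 1032 bp from Hoxa10. The miR-615 hairpin (chromosome 15, 103014910 to 103015001, plus strand) lies in an intron of Hoxc5. miR-196a-5p comes from 2 hairpins. The hairpin miR-196a-1 lies in the Hoxb cluster (chromosome 11, 96265164 to 96265265, plus strand), 6192 bp from Hoxb9, and miR-196a-2 in the Hoxc cluster (chromosome 15, 102973350 to 102973434, plus strand), in an intron of a long Hoxc5 transcript and 1457 bp from Hoxc10. Both hairpins are shown, with the mature 5p strand in capitals, since its letters are the same in each.
miR-196a-1: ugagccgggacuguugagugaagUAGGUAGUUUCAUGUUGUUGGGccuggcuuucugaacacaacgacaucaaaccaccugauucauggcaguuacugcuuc
miR-196a-2: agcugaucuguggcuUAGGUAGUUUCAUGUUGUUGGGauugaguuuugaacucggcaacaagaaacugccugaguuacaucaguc
Counts of miR-196a-5p therefore cannot be divided between the Hoxb and Hoxc clusters. The 3p strands do differ between the hairpins, but miR-196a-1-3p and miR-196a-2-3p had 0 counts in all 5 libraries.

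Levels are given as CPM, counts scaled to a common total of miRNA counts, after TMM normalisation, which scales libraries so that most miRNAs are level between them. Total miRNA counts were 912080 and 131507 in the unmodified libraries 1 and 2, and 2914305, 2473178 and 192450 in the freeze-dried libraries 1 to 3. The 3 libraries above 500000 counts are called deep and the other ones, unmodified library 2 and freeze-dried library 3, shallow. Each group held a shallow library. Mesenchymal marker miRNAs (miR-199a, miR-214, miR-143, miR-145a, miR-21a, miR-22 and miR-29a, 8 strands) summed to 179966 and 191032 CPM before TMM in the unmodified and to between 126776 and 143449 in the freeze-dried libraries, and all 8 had counts. The 8 epithelial markers summed to 707 and 753 in the unmodified libraries and to between 203 and 435 in the freeze-dried ones, and the 6 blood markers to at most 548, with miR-200c-3p, miR-141-3p, miR-429-3p and both miR-142a strands at 0. The 2 endothelial markers summed to at most 403.5, the hepatocyte marker miR-122-5p to at most 296.2 and the 4 neural markers to at most 199.5. These lists are short and leave out abundant miRNAs also linked to epithelium, neurons or muscle. After TMM, miR-182-5p stood at 2649 to 3594 CPM and miR-183-5p at 2013 to 4034, with miR-96-5p of the same cluster at most 15.3. miR-129-5p stood at 1859 to 3655 CPM and miR-128-3p at 904 to 2268. The muscle miRNAs miR-206-3p and miR-1a-3p stood at 1064 to 1467 and 1787 to 3119 CPM. The low sums therefore do not show that miRNAs of other cell types were scarce. The mesenchymal list holds miR-21a-5p at 38636 to 87555 CPM after TMM, and its high sum does not by itself settle the cell type.

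Together the 6 members took 2.21% ± 0.15 of all counts in unmodified EVs (SD, n = 2), against 2.15% ± 0.24 after freeze-drying (SD, n = 3). The library values were 2.32% and 2.10% without freeze-drying and 2.40%, 1.92% and 2.13% with it. The groups overlapped (exact two-sided permutation p = 1.0, smallest possible 0.2). Most of this share was miR-196a-5p, which made up 56.9% to 73.4% of the members' counts in each library.

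miR-196a-5p, a repressor of Hox messenger RNAs of the middle and posterior body, was the most abundant member in every library. It stood at 11791 and 14566 CPM in the unmodified libraries 1 and 2 and at 16628, 10603 and 17090 CPM in the freeze-dried libraries 1 to 3. It ranked between 13 and 22 among all miRNAs of a library. Its highest value was 1.61 times its lowest, and its lowest 2 values were both in deep libraries.

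miR-196b-5p, its seed partner from the Hoxa cluster, stood lower, at 3301 and 1768 CPM without freeze-drying and at 2736, 2404 and 1905 CPM with it. The shallow libraries had the lowest 2 values. The ratio of miR-196b-5p to miR-196a-5p counts was 0.280 and 0.121 in the unmodified and 0.165, 0.227 and 0.111 in the freeze-dried libraries, so miR-196a-5p led in all 5. miR-615-3p, whose hairpin lies within Hoxc5, stood at 2835 and 4470 CPM and at 2953, 4332 and 3718 CPM. Its lowest and highest values both belonged to the unmodified group. The levels of miR-615-3p and miR-196b-5p overlapped across libraries, while every value of miR-196a-5p lay above every value of the other members.

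miR-10a-5p, of the family linked to the anterior Hox4 paralogs, varied far more. It had 2685 and 16 counts in the unmodified libraries, or 2631 and 122 CPM. In the freeze-dried libraries it had 8276, 2860 and 41 counts, or 3007, 1109 and 233 CPM. It was high in the 3 deep libraries and low in both shallow ones, and the highest value was 24.5 times the lowest. Its rank within a library ran from 52 in freeze-dried library 1 to 184 in unmodified library 2. miR-10b-5p, from the Hoxd cluster, was the scarcest of the guide strands in the deep libraries. It had 178 and 32 counts without freeze-drying (174 and 245 CPM) and 317, 35 and 58 counts with it (115, 13.6 and 330 CPM). Its lowest value, in freeze-dried library 2, was 24.3 times below its highest, in freeze-dried library 3. The shallow libraries had its highest 2 values, the reverse of miR-10a-5p.

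**Figure D1:**
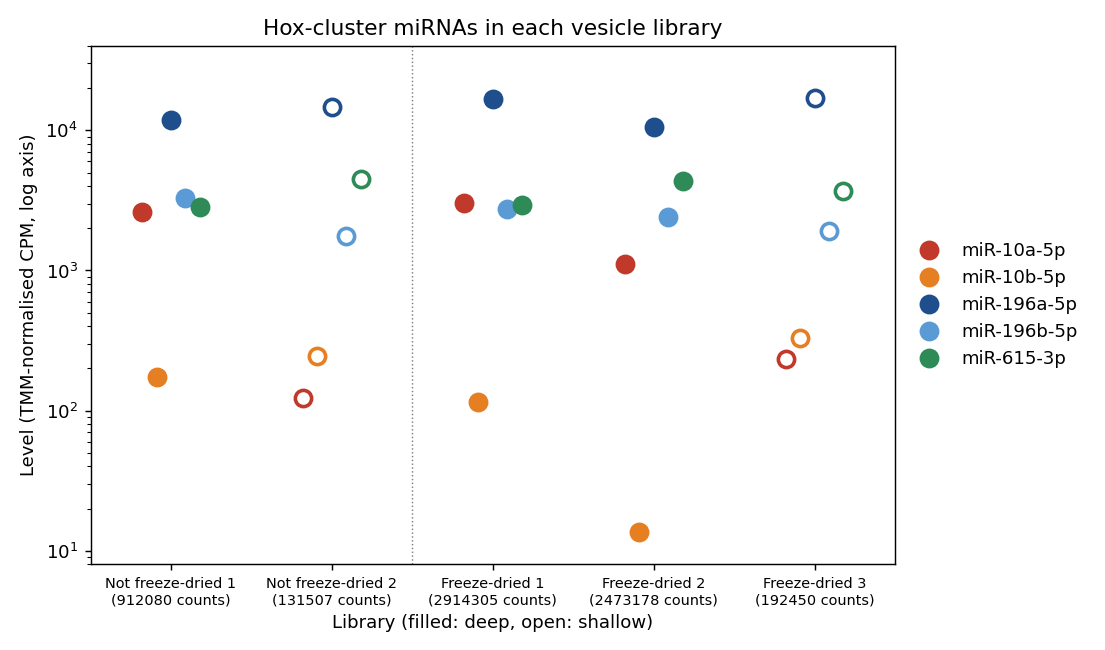
Level of the 5 guide strands in each library, as TMM-normalised CPM on a log axis; each point is 1 library, filled for deep and open for shallow ones, and points of a library are set side by side for legibility. miR-196a-5p stays between 10603 and 17090 CPM, while miR-10a-5p is at 1109 to 3007 CPM in the deep libraries and at 122 and 233 CPM in the shallow ones.

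The other strands of these hairpins were rare. miR-10a-3p had 28 counts in freeze-dried library 1 and 0 in the other libraries. At the share of that library, 8.76 counts would be expected in unmodified library 1 and 23.8 in freeze-dried library 2, but only 1.26 and 1.85 in the shallow libraries, where 0 counts allow a level of up to 22.8 and 15.6 CPM. In freeze-dried library 1, the library where both were counted, miR-10a-5p had 296 counts for each count of miR-10a-3p (exact binomial 95% interval 204 to 445). With 0.5 added to each count, the log2 ratio of the strands differed by 0.30 between group means (8.72 ± 5.19, SD, n = 2 and 9.01 ± 3.14, SD, n = 3; exact two-sided permutation p = 0.80, smallest possible 0.2), but 4 of its 5 values rest on 0 counts of the 3p strand. miR-615-5p had 94 counts in freeze-dried library 1, 7 in unmodified library 2 and 0 elsewhere. At the share of freeze-dried library 1, 79.8 counts of it would be expected in freeze-dried library 2 and 29.4 in unmodified library 1, where 0 were found. miR-196b-3p had 3 counts in unmodified library 1 and 0 elsewhere, and miR-10b-3p had 0 in all 5. These intervals and limits cover counting error only, because reads are not independent molecules unless PCR copies are removed.

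The series asks whether freeze-drying changes the miRNAs of the vesicles, and for the Hox-cluster miRNAs no difference passed the test. edgeR's quasi-likelihood test called 0 of the 327 tested miRNAs (0%) and so 0 of the 5 tested members. An unadjusted p under 0.05 was given to 9 miRNAs (2.75%) by edgeR, to 16 by DESeq2 and to 15 by limma-voom. Neither of the other tools called any miRNA after adjustment. The values of the groups overlapped for all 5 tested members, against 17.4% of all tested miRNAs whose groups did not overlap. The median log2 fold change was 0.0067 for the 5 members and 0.015 for all tested miRNAs. miR-10a-3p did not pass the filter on low counts.

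How closely a change was bounded differed between families. miR-196a-5p averaged 13178 ± 1962 CPM in unmodified EVs (SD, n = 2), against 14774 ± 3619 CPM after freeze-drying (SD, n = 3), and the log2 fold change was 0.16 with an SE of 0.30 (95% interval -0.51 to 0.84; edgeR adjusted p = 0.976). miR-196b-5p averaged 2534 ± 1084 and 2348 ± 419 CPM, and the log2 fold change was -0.11 with an SE of 0.38 (interval -0.96 to 0.74). miR-615-3p averaged 3652 ± 1156 and 3668 ± 691 CPM, and the log2 fold change was 0.01 with an SE of 0.34 (interval -0.75 to 0.76). For these 3 members both ends of the interval lay within a 2-fold change.

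The miR-10 guide strands were not bounded in this way. miR-10a-5p averaged 1377 ± 1774 CPM in unmodified EVs (SD, n = 2), against 1450 ± 1418 CPM after freeze-drying (SD, n = 3), and the log2 fold change was 0.07 with an SE of 1.70 (interval -4.78 to 4.92; edgeR adjusted p = 0.992). It became -0.89 without unmodified library 2, -1.03 without freeze-dried library 1 and 3.62 without unmodified library 1, none of them past the threshold. With depth class as a term it was 0.12 and the interval narrowed to -1.06 to 1.30. Among deep libraries the level was 2631 CPM against 3007 and 1109, and among shallow ones 122 against 233. miR-10b-5p averaged 209.7 ± 49.9 CPM (SD, n = 2) and 152.8 ± 161 CPM (SD, n = 3), and the log2 fold change was -0.47 with an SE of 1.38 (interval -3.55 to 2.62). Without freeze-dried library 2 it was 0.06. An adjusted p this high does not show that the levels are equal, and for miR-10a-5p and miR-10b-5p changes of several fold in either direction lie inside the interval.

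**Figure D2:**
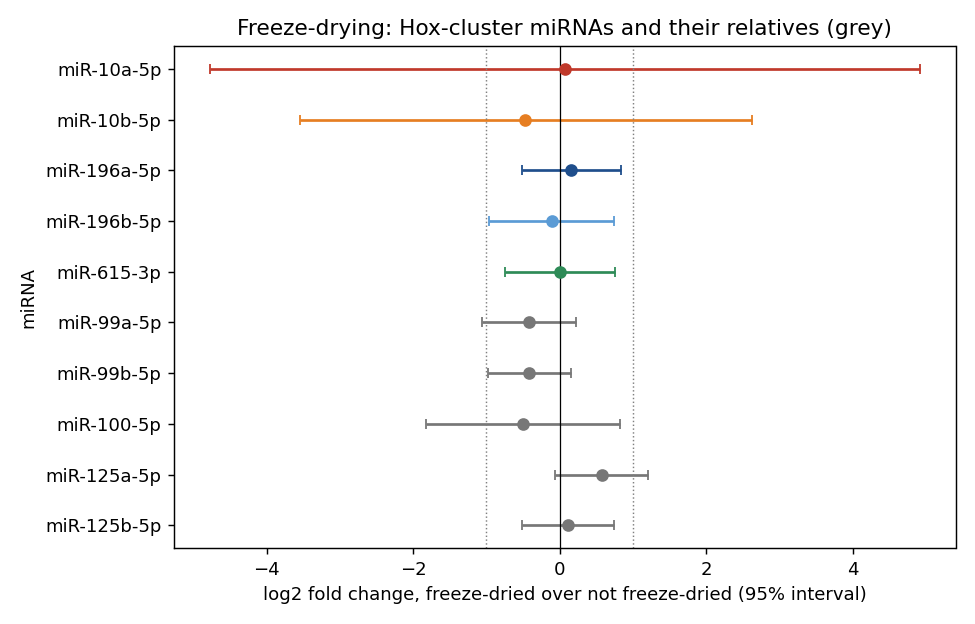
Log2 fold change, freeze-dried over not freeze-dried, of the 5 tested Hox-cluster miRNAs (coloured) and 5 relatives of miR-10 (grey); points are edgeR estimates, bars their 95% intervals, and dotted lines mark a 2-fold change. The intervals of miR-196a-5p, miR-196b-5p and miR-615-3p lie inside the dotted lines, and that of miR-10a-5p runs from -4.78 to 4.92.

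Depth class separated the libraries for miR-10a-5p where freeze-drying did not. This comparison was made after the values had been seen. In an edgeR fit with the freeze-drying group as a term, miR-10a-5p was lower in the shallow libraries by a log2 fold change of -3.65 with an SE of 0.59 (95% interval -5.03 to -2.28; adjusted p = 0.0162), which is 12.6-fold. Its deep level was 21.5 times the shallow one within the unmodified group and 12.9 and 4.76 times within the freeze-dried group. The mean share of the deep libraries corresponds to 304 and 445 counts at the totals of unmodified library 2 and freeze-dried library 3, where 16 and 41 were found.

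In that fit edgeR called 10 of 327 miRNAs (3.06%), 5 of them lower in the shallow libraries (1.53%), and 1 of the 5 tested members. At an unadjusted p under 0.05 it had 38 miRNAs (11.6%), among the members again miR-10a-5p alone. Of the 89 tested miRNAs averaging 1000 CPM or more over the 5 libraries, miR-10a-5p had the lowest fold change. It reached that average only through the deep libraries, standing at 122 and 233 CPM in the shallow ones, so its place follows in part from the cut. Lower values occurred below the cut, such as that of miR-193b-3p (-4.05, interval -8.83 to 0.72), which was not called. The call of miR-10a-5p was lost with limma-voom (log2 fold change -3.57, adjusted p = 0.978). It was also lost without unmodified library 1, unmodified library 2 or freeze-dried library 3 (log2 fold changes of -3.13, -3.21 and -4.57, adjusted p = 0.182, 0.109 and 0.464). The direction was the same in all 15 alternatives, of which 11 kept the call. All of them refit the same libraries, in which every deep value lay above both shallow ones, so the shared direction adds no support. Totals differ for reasons the labels do not state, and what set miR-10a-5p apart in the shallow libraries was not tested. Fewer vesicles carrying a miRNA and fewer copies per vesicle cannot be told apart in these libraries.

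The other members did not pass the test between depth classes. miR-10b-5p, which has the same letters as miR-10a-5p but for U12A, had a log2 fold change of 1.61 with an SE of 1.30 (interval -1.39 to 4.61; edgeR adjusted p = 0.769) and miR-196b-5p one of -0.63 with an SE of 0.28 (interval -1.27 to 0.01; adjusted p = 0.411). Without 1 library the value of miR-10b-5p ran from 0.35, without freeze-dried library 3, to 2.52, without freeze-dried library 1, and it was 0.92 without freeze-dried library 2. Those of miR-196a-5p (0.32, interval -0.29 to 0.92) and miR-615-3p (0.30, interval -0.37 to 0.98) turned negative with upper-quartile normalisation (-0.09 and -0.08), which shifts the median of all miRNAs by -0.39. The CPM values of the depth classes did not overlap for 3 of the 5 tested members, miR-10a-5p, miR-10b-5p and miR-196b-5p, against 30.9% of all tested miRNAs. Of the 5 tested members 2, miR-10a-5p and miR-196b-5p, were lower in the shallow libraries without overlap, against 15.3% of all tested miRNAs. The median log2 fold change was 0.303 for the 5 members and 0.027 for all tested miRNAs.

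**Figure D3:**
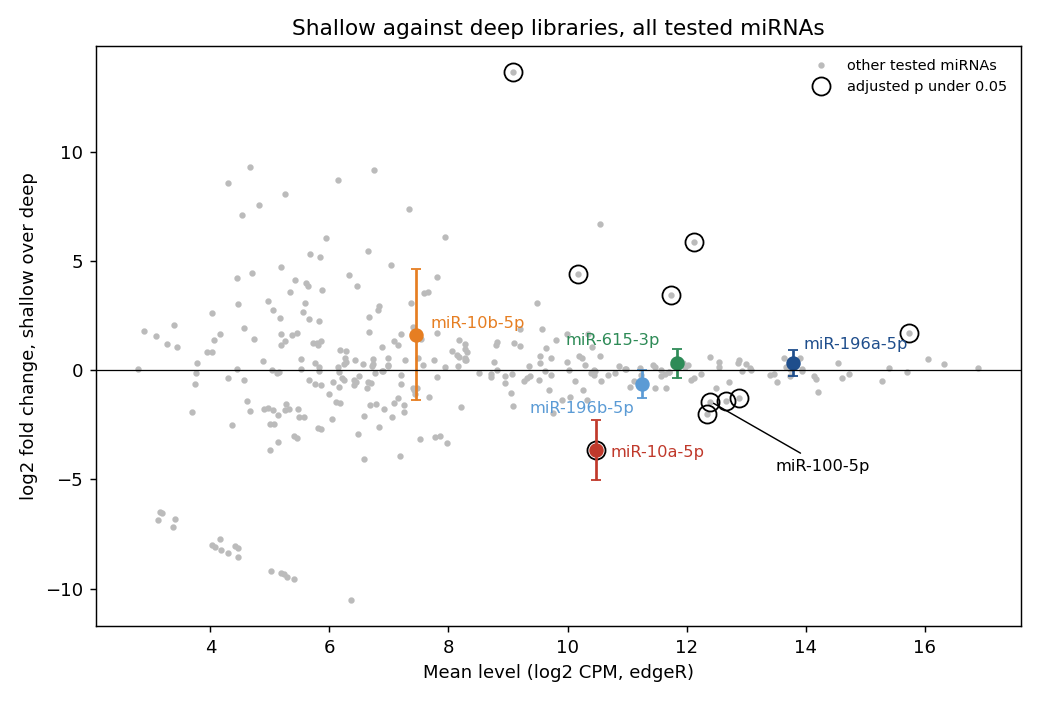
Log2 fold change, shallow over deep libraries, of all 327 tested miRNAs against their mean level in log2 CPM (edgeR with the freeze-drying group as a term); coloured points are Hox-cluster miRNAs with 95% intervals, grey points the other tested miRNAs, and black rings mark adjusted p under 0.05. miR-10a-5p, at -3.65, is ringed below the zero line and the other members are not ringed.

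Ratios within a library do not depend on how libraries are scaled. miR-10b-5p had 0.0663 counts per count of miR-10a-5p in unmodified library 1 (exact binomial 95% interval 0.0566 to 0.0772), 0.0383 in freeze-dried library 1 and 0.0122 in freeze-dried library 2. In the shallow libraries the ratio was 2.0 in unmodified library 2 (interval 1.07 to 3.90) and 1.42 in freeze-dried library 3 (interval 0.932 to 2.17). miR-10a-5p was thus the main miR-10 strand in each deep library. In unmodified library 2 miR-10b-5p had more counts than miR-10a-5p (32 against 16), while in freeze-dried library 3 the order lay within counting error. The intervals cover counting error only, so the order in unmodified library 2 is not firm either. On the log2 scale the ratio averaged -4.98 ± 1.23 in deep (SD, n = 3) and 0.74 ± 0.34 in shallow libraries (SD, n = 2), with no overlap (two-sided exact permutation p = 0.20, which is the lowest that 2 against 3 libraries allow). Between freeze-drying groups it averaged -1.47 ± 3.46 (SD, n = 2) and -3.51 ± 3.57 (SD, n = 3), a difference within the spread (two-sided exact permutation p = 0.40).

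The miR-196 pair moved less. The log2 ratio of miR-196b-5p to miR-196a-5p averaged -2.19 ± 0.39 in deep (SD, n = 3) and -3.10 ± 0.09 in shallow libraries (SD, n = 2), again with no overlap (p = 0.20 by the same exact permutation test), and differed by -0.198 between the means of the freeze-drying groups (exact two-sided permutation p = 0.80). The miR-10 guide strands together took 0.314% and 0.0365% of counts without freeze-drying and 0.295%, 0.117% and 0.0514% with it. The miR-196 guide strands took 1.69% and 1.62%, and 1.83%, 1.36% and 1.74%. For both shares the freeze-drying groups overlapped (exact two-sided permutation p = 1.0 for each). The log2 ratio of miR-10 to miR-196 guides ran from -3.53 to -2.43 in the deep libraries and was -5.46 and -5.07 in the shallow ones, and it did not differ beyond the spread between freeze-drying groups (exact two-sided permutation p = 1.0).

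**Figure D4:**
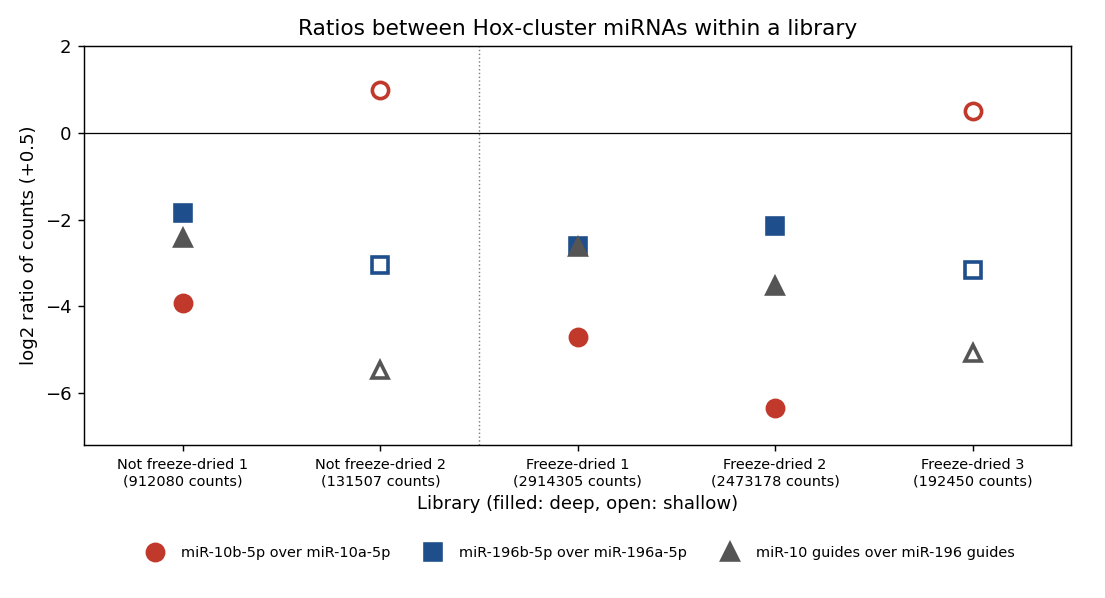
Log2 ratios of counts within each library, with 0.5 added to each count, for miR-10b-5p over miR-10a-5p (circles), miR-196b-5p over miR-196a-5p (squares) and the miR-10 over the miR-196 guide strands (triangles); filled symbols are deep and open ones shallow libraries. The circles lie at or below -3.91 in the deep libraries and at 0.98 and 0.50 in the shallow ones.

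Outside the Hox clusters the mouse genome holds relatives of miR-10, the miR-99, miR-100 and miR-125 guide strands, 5 of which were compared. The sequences of the closest relatives show the shifted overlap with miR-10a-5p, again with the seed in capitals.
miR-100-5p: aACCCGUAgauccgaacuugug
miR-99a-5p: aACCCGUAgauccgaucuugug
miR-99b-5p: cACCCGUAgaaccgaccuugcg
miR-10a-5p shares a run of 11 bases with miR-100-5p and of 10 with miR-99a-5p, both from position 7 of miR-10a-5p, and of 5 with miR-99b-5p. miR-100-5p was lower in the shallow libraries, at 3643 and 2104 CPM against 9482, 6589 and 5223 CPM in the deep ones. The log2 fold change was -1.44 with an SE of 0.25 (95% interval -2.03 to -0.86; edgeR adjusted p = 0.0175). That call too was lost with limma-voom (adjusted p = 0.248) and without unmodified library 1, unmodified library 2 or freeze-dried library 3 (adjusted p = 0.22, 0.128 and 0.484).

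The other 4 relatives were not called between depth classes, with log2 fold changes of -0.18 for miR-99a-5p (interval -0.73 to 0.37), -0.02 for miR-99b-5p (interval -0.54 to 0.50), -0.28 for miR-125a-5p and -0.49 for miR-125b-5p. Between the freeze-drying groups 0 of the 5 relatives was called, 2 had a fold change above 1 and 3 below, and their median log2 fold change was -0.416. Groups without overlap were found for 3 of these 5, against 17.4% of all tested miRNAs: miR-99a-5p and miR-99b-5p stood lower in each freeze-dried than in each unmodified library (log2 fold change -0.42 for both) and miR-125a-5p higher (0.58), with an edgeR adjusted p = 0.976 for each. The seed of miR-196, read across families, stands in let-7a-5p shifted by 1 base, at positions 3 to 9.

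The spread over the 5 libraries was compared between 2 broad classes of tested miRNAs, split at a mean of 1000 CPM and not matched more closely by level. The SD of log2 CPM was 2.07 for miR-10a-5p, place 5 from the highest of the 89 tested miRNAs at 1000 CPM or more, whose median was 0.389. That place depends on the class, which miR-10a-5p reached only through the deep libraries, standing at 122 and 233 CPM in the shallow ones. Its SD was below the median of 2.21 of the tested miRNAs under 1000 CPM. The SD was 0.304 for miR-196a-5p, 0.371 for miR-196b-5p and 0.305 for miR-615-3p, all below the median of 0.389. miR-10b-5p had an SD of 1.79, against a median of 2.21 for the 238 tested miRNAs below 1000 CPM. That class reaches far lower levels, such as a log2 CPM of 2.79 for miR-96-5p against 7.46 for miR-10b-5p. Its median therefore does not show which spread is usual at the level of miR-10a-5p or miR-10b-5p.

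For each tested member the 2 miRNAs with the most similar profile over the 5 libraries were taken from 192 tested miRNAs averaging 100 CPM or more, by the root-mean-square difference of centred log2 CPM. Those nearest to miR-10a-5p were miR-30a-3p (0.665) and miR-322-5p (0.721), which stood at 15.3 and 62.5 CPM and at 7.65 and 62.5 CPM in the shallow libraries. In unmodified library 2 both lay below the 22.8 CPM that 0 counts would allow there, so this likeness rests in part on very few counts. miR-322-5p belongs to the miR-15/16 seed family. miR-10b-5p was nearest to miR-6238 (0.545) and miR-218-5p (0.696). miR-196a-5p was nearest to miR-222-3p (0.125) and miR-26b-5p (0.132), miR-196b-5p to miR-27a-3p (0.133) and miR-27b-3p (0.137), and miR-615-3p to miR-484 (0.111) and miR-1198-5p (0.115). With 5 libraries such likeness is a description of these profiles.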

How the data were processed

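The authors deposited raw read counts per mature miRNA, made from libraries of the NEXTFLEX Small RNA-seq kit v3, per the labels. The submitters' processing notes list, with no role or order, the GRCm38 build and the tools featureCounts 1.5.0-p1, Bowtie 1.1.2, cutadapt 2.3, FastQC and bcl2fastq 2.20. Not given in the sources used here are the annotation release and how strand, PCR duplicates and reads with several matches were handled. Columns were matched to samples by the sample names in the labels, and 0 columns of other samples were present.

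Of 1966 rows, 517 had a count and 327 passed filterByExpr. Differences were tested with edgeR 4.0.16 under R 4.3.3 (TMM factors, robust quasi-likelihood F test), adjusted by Benjamini-Hochberg over all tested miRNAs with a threshold of 0.05. The SE is the log2 fold change divided by the square root of F. Shares and log2 ratios (0.5 added to each count) had a two-sided exact permutation test over libraries (scipy 1.17.1), which with 2 against 3 libraries cannot go below 0.2. Alternatives were DESeq2 1.42.0, limma-voom (limma 3.58.1), other normalizations and filters, thinning, let-7 rows left out, each library left out, a depth term, deep libraries alone and the replicate number as a block. The fits were tested on simulated data.

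The members and lists were chosen with earlier results of these data known. Named are the 6 members, the other strands of their hairpins, 5 relatives of miR-10, the 2 most similar miRNAs per tested member and the marker lists. Library totals ran from 131507 to 2914305 counts, so 1 count was worth most in the shallowest library.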

Additional observations from a re-analysis of the deposited data

How the results depend on the processing

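Depth class as a comparison and its alternatives were chosen after seeing the data. Between freeze-drying groups 0 members were called under all 17 alternatives. Over all miRNAs, 1 was called lower when the 3 deep libraries were used alone and 4 with the replicate block, against 0. Deviations from the group means correlated at 0.153 and -0.112 in the 2 pairs that replicate numbers give. This cannot settle whether the samples are paired. With 2 unmodified libraries their deviations mirror each other, and pair 2 sets a shallow library against a deep one. With the block the log2 fold changes were 1.62 for miR-10a-5p, -2.36 for miR-10b-5p, 0.02 for miR-196a-5p, 0.0849 for miR-196b-5p and 0.01 for miR-615-3p, 0 of them called. Directions of small freeze-drying effects turned: miR-10a-5p was -0.0467 with upper-quartile normalization, -0.130 with library totals, which shift the median of all miRNAs by -0.109, -0.029 with limma-voom, -0.382 in the deep libraries and -1.03 to 3.62 without 1 library, and miR-615-3p was -0.0222 with RLE, -0.0462 with upper quartile, -0.0929 with totals, -0.0199 with DESeq2 and -0.218 to 0.329 without 1 library. Without 1 library miR-10b-5p ran from -1.64 to 0.0575, miR-196b-5p from -0.531 to 0.475 and miR-100-5p from -1.06 to 0.412. The share of the 6 members (-0.0597 percentage points) became 0.385 outside let-7, 0.144 as TMM sums and -0.186 to 0.0539 without 1 library, that of miR-10 guides (-0.0208) 0.00512, 0.00162 and -0.159 to 0.118, and that of miR-196 guides (-0.0154) 0.341, 0.141 and -0.110 to 0.127. Log2 ratios ranged without 1 library from -4.49 to 0.398 (miR-10b-5p to miR-10a-5p), -0.799 to 0.404 (miR-196 pair), -3.38 to 3.97 (miR-10a strands) and -1.32 to 1.71 (miR-10 to miR-196); in the deep libraries the last pair were -2.06 and -0.656. Cause was not tested for any of these.

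Between depth classes the single member called became 0 with limma-voom and 0 to 1 without 1 library. The count of all miRNAs higher (5) became 15 with DESeq2, 3 with limma-voom, 13 without a filter, 8 with at least 10 counts in every library, 9 thinned, 10 without let-7 rows, 12 without the group term and 0 to 14 without 1 library. The count lower (5) became 10 with upper quartile, 11 with DESeq2, 0 with limma-voom, 10 without a filter and 0 to 11 without 1 library. miR-196a-5p turned to -0.0866 and miR-615-3p to -0.0807 with upper quartile, and miR-615-3p ran from -0.0499 to 0.516 without 1 library. The cause was not tested.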
